A study of Homo sapiens with 4 samples.

Results

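The shortest exposure of a doxorubicin time course was set against the untreated cells: the library made after 10 min in 10 nM doxorubicin and the library labelled untreated (0 min). Both came from AC16, an established human line made by fusing adult ventricular cells with SV40-transformed fibroblasts and labelled a cardiomyocyte line. For the treated cells, medium with fetal bovine serum was taken off, the cells were rinsed once in PBS, and the drug was given in fresh serum-free DMEM. The labels do not say whether the untreated cells had this change of medium, so drug, fresh medium and loss of serum cannot be told apart. Libraries at 30 and 360 min, handled in the same way, are quoted beside each result, and poly(A) RNA was sequenced from 1 library per group. There is therefore no spread between replicates, no p-value was computed, and each difference is one between 2 libraries. Of 66839 loci in the deposited gene counts, 12131 reached 5 CPM in the untreated or the 10 min library and were compared, CPM being counts per 1000000 after TMM scaling. A difference was called, or past the rule, where it was at least 2-fold and the 95% exact counting interval of the ratio excluded 1, and that interval stands in parentheses after each fold. Intervals cover counting error only, because 1 library a side gives no spread between libraries. No molecular identifiers are recorded, so duplicate reads could not be told apart and the intervals may be too narrow.

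Doxorubicin is an anthracycline that slides between DNA base pairs and traps topoisomerase II on cut DNA. Growth factors and nutrients are read by cells within minutes: the kinase ERK switches on immediate early genes, which need no new protein, and the same pathway then induces its own inhibitors. In dividing cells, E2F factors drive the genes of DNA replication and the DREAM and MuvB complexes time those of mitosis, while MYC sets the genes that build ribosomes. When growth signals stop, FOXO factors enter the nucleus, and the sugar sensor MondoA switches on TXNIP as glucose products build up.

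At 10 min, 641 loci were higher (5.28% of those compared) and 670 were lower (5.52%) than at 0 min. Counts of list members past the rule are read against these shares. The libraries held 56875881 deposited counts at 0 min and 55596712 at 10 min, or 14218970 and 13899178 read pairs if a pair is taken as 4 counts. Over the 16272 loci at 1 CPM or above on either side, the median log2 ratio was -0.02, and the list medians given here are over members at that level. In bulk RNA, fewer cells of a type or stage and less RNA per cell cannot be told apart. Of 27 cardiomyocyte markers, 15 stood under 1 CPM in both libraries, 6 of them at 0, ACTC1, MYBPC3 and CKM among these. The sarcomere genes MYH6, MYH7 and TNNT2 were under 1 CPM, so the libraries hold little of the contractile programme of the labelled cell type. MYL2, a ventricular myosin light chain, was measured at 35.3, 42.6, 42.6 and 41.0 CPM at 0, 10, 30 and 360 min, and none of the markers passed the rule. The fibroblast and matrix markers, which the cells express at high levels, had a median of 0.44, 13 of 15 above a ratio of 1 and none past the rule. Their summed level was 19151, 24252, 15627 and 16226 CPM in the same order, the order used for every set of 4 values here, and their part in the results was not tested.

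Some immediate early genes and some of the inhibitors that ERK signalling induces were higher after 10 min. EGR1, a zinc finger factor switched on by ERK and SRF (ENSG00000120738, chromosome 5, 138465490 to 138469315, GRCh38 with GENCODE 29 annotation), was at 6.72, 83.2, 430.2 and 9.86 CPM, 12.4-fold (10.01 to 15.4) higher at 10 min. FOS, the partner of JUN in AP-1, was at 0.408, 8.32, 24.4 and 0.385 CPM, and JUNB was at 47.7, 105, 124 and 43.9 CPM. These 3 genes were high at 10 min and higher still at 30 min, and at 360 min they were back near the untreated level. JUN itself, at 242, 311, 432 and 258 CPM, and FOSL2, at 663, 834, 598 and 556 CPM, did not pass the rule. Of the AP-1 list, 2 higher and 1 lower of 10 compared members passed, the lower one being the small MAF factor gene MAFK (96.4, 44.9, 52.1 and 96.5 CPM). EGR1 was the only gene of the EGR and SRF list that was higher, and MRTFB, a coactivator of SRF, was lower (51.5, 24.8, 44.7 and 49.8 CPM). SRF binds the CArG box, and the EGR1 promoter is shown because letters that match it occur at 2 places, in capitals, in the 250 bases before the RefSeq start (chr5:138465229-138465478, plus strand, GRCh38.p14):
EGR1: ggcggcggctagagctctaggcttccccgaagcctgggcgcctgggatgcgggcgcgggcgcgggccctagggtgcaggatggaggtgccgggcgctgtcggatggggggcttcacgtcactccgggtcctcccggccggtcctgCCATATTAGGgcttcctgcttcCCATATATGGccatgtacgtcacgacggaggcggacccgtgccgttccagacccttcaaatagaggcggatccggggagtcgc

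Exon bases shared with another gene make JUNB (14.2%, with HOOK2) and MAFK (18.1%, with TMEM184A) uncertain. The model with the most counts was not the same at 0 and 10 min at FOS. MRTFB (log2 ratio -0.995) was short of the rule with total counts as the scale. A CArG box, searched on both strands of 300-base RefSeq windows, was found in 1.29% of 27305 promoters, 2.08% of those of higher loci and 0.641% of those of lower loci.

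Genes that switch ERK signalling off made up the next group. Of 18 MAP kinase feedback genes, 5 higher and 0 lower of 16 compared members passed the rule, with a list median of 0.44. Over all compared loci, 5.28% were higher and 5.52% lower. SPRY4, a Sprouty inhibitor of receptor tyrosine kinase signalling, was at 2.23, 8.21, 18.1 and 5.37 CPM, 3.67-fold (2.44 to 5.54) higher at 10 min. SPRY2, its relative, was at 3.16, 9.69, 16.5 and 3.94 CPM. SPRED3, which restrains RAS activation of RAF, was at 4.15, 11.9, 11.4 and 4.65 CPM. All 3 were higher at 10 and 30 min than at 0 and 360 min. The ERK phosphatase gene DUSP6 was at 2.98, 7.55, 8.18 and 2.49 CPM and ERRFI1, an inhibitor of the EGF receptor, at 149, 325, 306 and 209 CPM. Unlike DUSP6, the phosphatase gene DUSP1 was short of the rule at 10 min (166, 228, 660.4 and 196 CPM), and DUSP10, which acts on p38 and JNK, had a ratio of 0.513 (0.467 to 0.564). ZFP36, which marks AU-rich mRNAs for decay, was at 6.40, 22.6, 13.5 and 9.31 CPM and was highest at 10 min. Of the 18 compared mRNA decay adaptors it was the only one past the rule. In the Krueppel-like list 2 of 11 were higher: KLF9, a glucocorticoid-inducible factor, at 16.7, 37.7, 20.6 and 15.8 CPM, and KLF16, at 6.60, 40.9, 45.8 and 39.7 CPM, which stayed high in all 3 treated libraries. Shared exon bases leave DUSP6 (40.5%, with ENSG00000274021) and KLF16 (16.3%, with ENSG00000267125) uncertain. ERRFI1 (log2 ratio 0.64), KLF16 (log2 ratio 0.04) and SPRY4 (log2 ratio 0.61) were short of the rule against the median of the 0, 30 and 360 min libraries.

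Genes that read sugar and growth factor supply had steep increases. TXNIP, an alpha-arrestin that curbs glucose uptake and binds thioredoxin (ENSG00000265972, chromosome 1, 145992435 to 145996600), was at 5.92, 75.6, 3.73 and 3.99 CPM, 12.8-fold (10.2 to 16.0) higher at 10 min. ARRDC4, the alpha-arrestin that shares its MondoA control, was at 3.88, 13.7, 5.03 and 4.60 CPM. YPEL2, of a family of small zinc-binding proteins, was at 1.12, 15.4, 1.61 and 1.301 CPM, 13.8-fold (8.14 to 24.1) higher. Each of the 3 was high in the 10 min library alone: at 30 and 360 min the levels were within 1.5-fold of the untreated one or below it. Of the 6 measured members of the alpha-arrestin and MondoA list, 4 did not pass, among them ARRDC3 (45.9, 72.1, 26.4 and 40.4 CPM) and the gene of MondoA itself, MLXIP (144, 154, 132 and 136 CPM). YPEL3 (12.1, 22.0, 17.2 and 11.5 CPM) and YPEL5 (69.8, 106, 69.5 and 58.5 CPM) had ratios above 1 but were short of 2-fold. The carbohydrate response element that MondoA binds is a pair of half-sites, CACGNG, set 5 bases apart, and the TXNIP promoter (chr1:145996580-145996829, minus strand, GRCh38.p14) is shown because a match to it stands in capitals:
TXNIP: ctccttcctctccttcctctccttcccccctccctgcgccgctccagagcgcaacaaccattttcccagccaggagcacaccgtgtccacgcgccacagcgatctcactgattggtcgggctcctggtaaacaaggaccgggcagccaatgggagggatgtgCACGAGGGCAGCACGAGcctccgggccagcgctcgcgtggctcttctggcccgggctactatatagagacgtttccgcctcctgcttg

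Leading models differed between the libraries at YPEL5. That pair, searched on both strands, was found in 0.0732% of all promoter windows, 0.178% of those of compared loci and 0.519% of those of higher loci.

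In the list of FOXO targets and genes of growth factor withdrawal, 5 higher and 1 lower of 18 compared members passed the rule (median 0.34, against -0.02 over all loci). Over all compared loci, 5.28% were higher and 5.52% lower. BCL6, a repressor that FOXO factors induce, was at 17.5, 61.8, 20.4 and 15.7 CPM, 3.54-fold (3.07 to 4.10) higher. TRIB2, a pseudokinase, was at 17.8, 42.2, 9.78 and 8.65 CPM, and KLHL24, a ubiquitin ligase adaptor, at 8.62, 19.6, 7.01 and 4.03 CPM. FOXO4, a FOXO factor, was at 8.51, 18.2, 9.94 and 4.78 CPM and GABARAPL1, an autophagosome protein of the ATG8 family, at 13.8, 38.03, 20.7 and 29.5 CPM. These genes were highest at 10 min and, but for GABARAPL1, at 30 min near or below 0 min. PDK4, the kinase that shuts pyruvate out of the mitochondrion, went against the list: it was at 28.2, 11.6, 12.7 and 19.4 CPM, 2.43-fold (2.02 to 2.93) lower at 10 min. The nuclear factor gene FOXO3 (112, 109, 113 and 118 CPM) and IRS2 (19.9, 23.8, 33.4 and 18.1 CPM) were short of the rule. The repressor gene MXI1, a MAX partner that opposes MYC, was at 17.0, 41.1, 30.8 and 7.68 CPM, and MYC itself at 28.5, 64.6, 85.2 and 37.6 CPM. MAX, their shared partner, had a ratio of 0.507 (0.442 to 0.580). BMF, a BH3-only gene that promotes apoptosis, was at 16.0, 33.6, 9.72 and 9.78 CPM, the only one of 13 compared BCL2 family genes past the rule. DEPP1, another FOXO-induced gene, was at 8.64, 37.0, 9.08 and 8.28 CPM. Shared exon bases leave DEPP1 (23.3%, with RASSF4) uncertain. The most counted transcript model differed between the 2 libraries at BCL6, GABARAPL1, FOXO3, MXI1 and MAX. GABARAPL1 (log2 ratio 0.87), MYC (log2 ratio 0.78) and PDK4 (log2 ratio -0.74) were short of the rule against the median of the 0, 30 and 360 min libraries. GABARAPL1 (log2 ratio 0.85) was short of the rule with annotated transcripts summed per gene.

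Some clock genes were higher, while the activator pair CLOCK and BMAL1 was not. Of the circadian list, 4 higher and 0 lower of 16 compared members passed (median 0.43), against 5.28% higher and 5.52% lower of all compared loci. NR1D1, the haem-binding repressor REV-ERB alpha, was at 5.09, 25.1, 13.97 and 5.35 CPM, 4.94-fold (3.81 to 6.42) higher. The D-box activator gene DBP was at 5.78, 21.6, 5.13 and 3.15 CPM and its relative TEF at 13.001, 26.3, 22.2 and 7.51 CPM. RORA, which competes with NR1D1 for its sites, was at 4.56, 14.6, 8.02 and 5.70 CPM. DBP was high at 10 min alone, while NR1D1, RORA and TEF were also above 0 min at 30 min. CLOCK (81.3, 58.5, 74.6 and 76.9 CPM) and BMAL1 (17.3, 14.04, 20.3 and 20.004 CPM), the activator pair, had ratios under 1 and were short of the rule, as was PER3 (21.2, 39.7, 13.8 and 16.0 CPM). Exon bases shared with another gene make DBP (10.1%, with SPHK2) and PER3 (10.7%, with UTS2) uncertain. A different transcript model led in the 2 libraries at DBP, BMAL1 and PER3. Summed annotated transcripts gave a log2 ratio of 2.12 for PER3 in place of 0.90.

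Hypoxia-inducible genes were another group with high values. Outside glycolysis, 6 higher and 1 lower of 21 compared members of the HIF list passed (5.28% of all compared loci were higher), with 20 of 21 measured members above a ratio of 1 and a median of 0.62. The higher ones include RORA and MXI1, given above and counted in the circadian and MYC lists too, so these lists are not separate. NDRG1, a stress gene of the cytoplasm and membranes, was at 210.1, 628, 380.4 and 225 CPM, 2.99-fold (2.87 to 3.12) higher. EGLN3, an oxygen-sensing prolyl hydroxylase, was at 28.6, 68.5, 39.1 and 22.2 CPM, and the carbonic anhydrase gene CA9 at 16.0, 32.5, 28.7 and 25.04 CPM. BNIP3L, a mitophagy receptor, was at 64.6, 173, 176 and 164 CPM and stayed high in all treated libraries. EGLN1, the main oxygen sensor of HIF and itself a HIF target, was lower at 10 min (148, 72.9, 165 and 152 CPM). Glycolysis split by gene: 3 of 17 compared members were higher, and the list median was 0.07. ENO2, the enolase of neurons and hypoxic cells (ENSG00000111674, chromosome 12, 6913745 to 6923698), was at 63.6, 249, 199 and 129 CPM, 3.91-fold (3.64 to 4.21) higher. ALDOC, an aldolase, was at 45.5, 141, 42.8 and 40.7 CPM and SLC2A3, a high-affinity glucose transporter, at 25.04, 72.9, 48.8 and 29.4 CPM. ALDOC was high at 10 min alone, and the other 2 stayed above 0 min at 30 and 360 min. The ENO2 promoter (chr12:6914330-6914579, plus strand, GRCh38.p14) is shown with a match to the core of the hypoxia response element in capitals:
ENO2: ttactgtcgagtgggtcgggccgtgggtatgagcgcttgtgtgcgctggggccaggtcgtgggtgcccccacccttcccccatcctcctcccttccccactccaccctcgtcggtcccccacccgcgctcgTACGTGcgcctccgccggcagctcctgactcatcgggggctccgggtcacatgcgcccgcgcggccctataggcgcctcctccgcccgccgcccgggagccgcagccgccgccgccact

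Values of CA9 (38.5%, with ARHGEF39) and ALDOC (10.1%, with ENSG00000265168) are uncertain through shared exon bases. Leading models differed between the libraries at NDRG1 and ENO2. BNIP3L (log2 ratio 0.07), CA9 (log2 ratio 0.38) and ENO2 (log2 ratio 0.94) were short of the rule against the median of the 0, 30 and 360 min libraries. EGLN1 (log2 ratio -0.96) was short of the rule with total counts as the scale. Summed annotated transcripts gave a log2 ratio of -1.69 for EGLN1 in place of -1.02. That core, TACGTG or GACGTG on either strand, was found in 39.4% of 33 promoters of the HIF and glycolysis lists and in 13.8% of those of compared loci. Among higher loci as a whole its share was 10.6%, and among lower loci 15.0%.

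**Figure D1:**
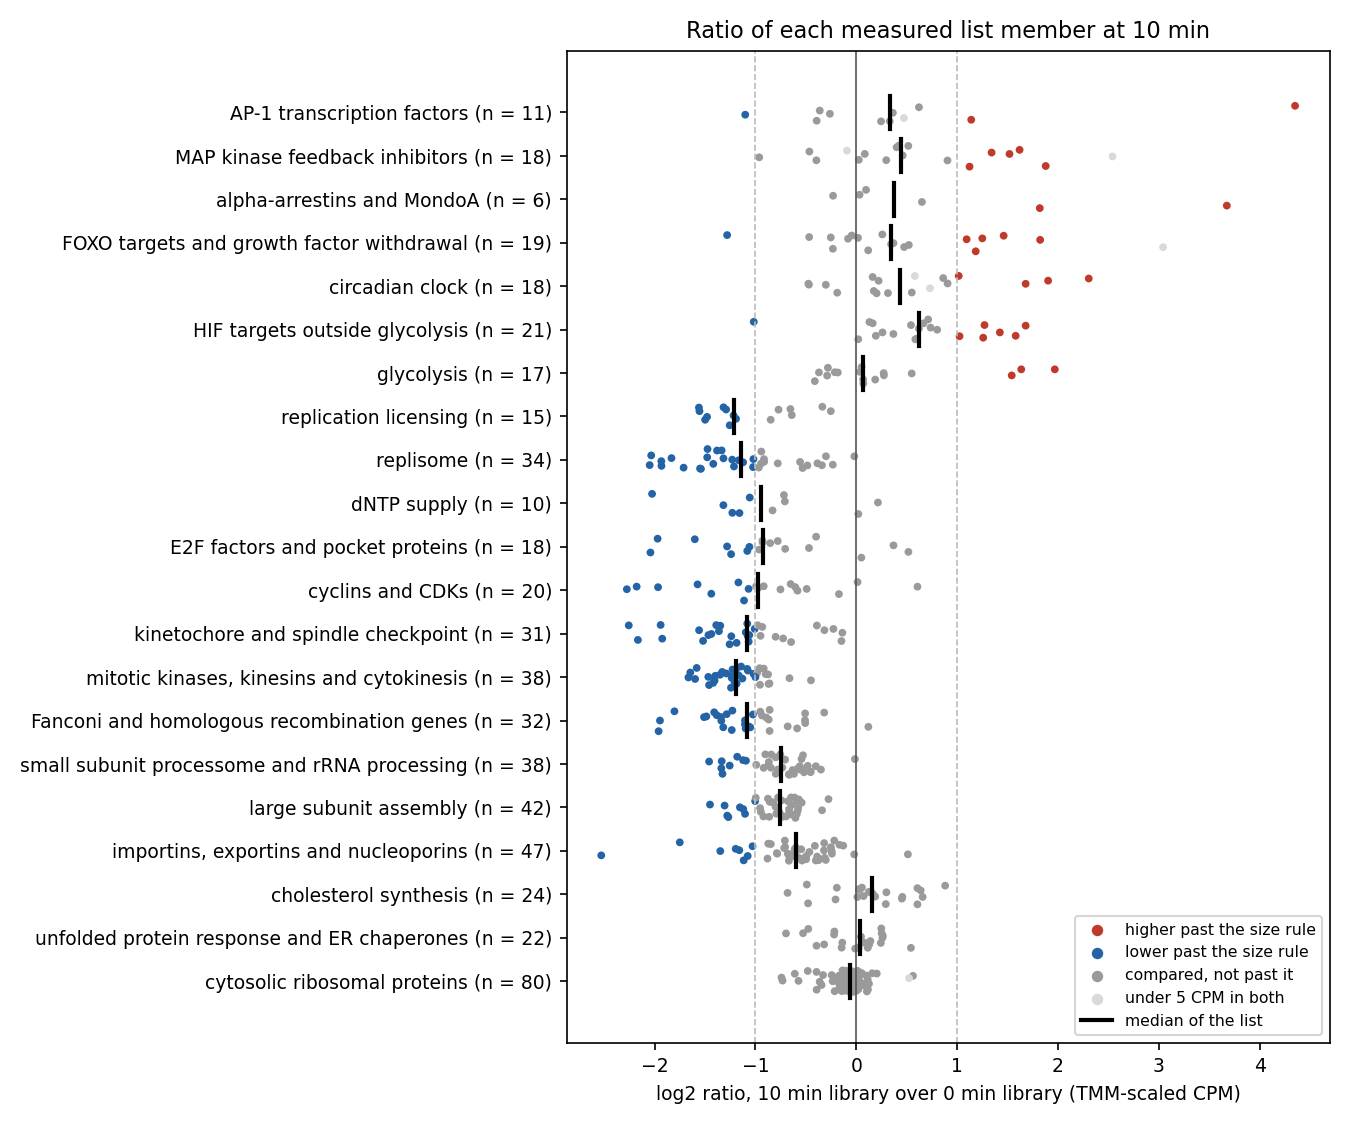
Each point is a measured gene of a list, placed by its log2 ratio of 10 min over 0 min (TMM-scaled CPM, 1 library each), with black bars for list medians, dashed lines at 2-fold and the number of measured genes beside each name. Replication and mitosis lists have medians left of 0, such as -0.97 for cyclins and CDKs and -1.22 for replication licensing, HIF targets have a median of 0.62, and cytosolic ribosomal proteins sit at -0.06.

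Genes of DNA replication and cell division were lower as a group. Over 12 cell cycle lists with 261 measured genes, 238 had a ratio under 1, and the median log2 ratio was -1.01. Of the 256 compared, 132 were lower (51.6%, against 5.52% of all compared loci) and 3 were higher, namely CDKN1C, H2AC6 and H2BC5. Licensing genes, which load the helicase onto origins, were lower in 9 of 15 cases. CDC6, the loading ATPase, was at 133, 45.0, 133 and 143 CPM, 2.95-fold (2.70 to 3.23) lower at 10 min. ORC1, the large subunit of the origin recognition complex, was at 29.4, 10.01, 28.5 and 40.4 CPM. MCM2 was at 134, 47.4, 120.3 and 138 CPM and MCM7 at 303, 122, 324 and 342 CPM, helicase subunits both. For all 4 the 10 min library was the low one, and the levels at 30 and 360 min were near or above that at 0 min. At the replisome 20 of 34 were lower (median -1.14). CLSPN, the fork mediator of the ATR checkpoint, was at 52.8, 12.8, 53.9 and 61.5 CPM, 4.14-fold (3.51 to 4.89) lower, and MCM10, which starts the helicase, at 38.5, 9.42, 36.1 and 46.9 CPM. GINS2, a subunit of that helicase, was at 46.5, 13.1, 49.0 and 62.4 CPM, and RFC3, of the clamp loader, at 52.7, 13.8, 42.6 and 49.6 CPM. The clamp PCNA, at 227, 78.0, 210.0 and 229.6 CPM, was also lower. No member of either list was higher. Exon bases shared with another gene make MCM2 (22.7%, with ENSG00000285600) uncertain. The most counted transcript model differed between the 2 libraries at MCM7 and MCM10.

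Supply of DNA building blocks followed. RRM2, which makes deoxynucleotides with RRM1 and limits their supply (ENSG00000171848, chromosome 2, 10120698 to 10131419), was at 246, 60.4, 325 and 449 CPM, 4.07-fold (3.77 to 4.39) lower at 10 min and above its untreated level at 30 and 360 min. RRM1, its partner, was at 136, 65.4, 138 and 144 CPM, thymidylate synthase TYMS at 140.1, 56.2, 164 and 161 CPM and thymidine kinase TK1 at 151, 64.2, 177 and 162 CPM. In contrast, none of the 15 compared genes of purine and pyrimidine synthesis passed the rule, although 13 had a ratio under 1. IMPDH2, which commits purines to guanine nucleotides, was at 198, 218, 207 and 192 CPM. E2F factors and their pocket protein partners had 7 of 18 lower. E2F1, an activator, was at 59.1, 19.5, 59.4 and 72.0 CPM and E2F2 at 22.2, 5.39, 20.5 and 26.6 CPM. RBL1, the pocket protein p107 and an E2F target, was at 40.3, 10.3, 42.3 and 45.5 CPM, 3.92-fold (3.25 to 4.71) lower. RB1 itself, at 66.9, 48.3, 71.0 and 76.9 CPM, and the quiescence factor RBL2, at 63.9, 82.5, 61.0 and 57.7 CPM, were short of the rule. Among cyclins and CDKs 8 of 20 were lower. CDC25A, the phosphatase that activates CDK2, was at 37.5, 8.30, 29.5 and 44.4 CPM, 4.52-fold (3.70 to 5.56) lower. CCNE2, a cyclin of the S phase entry, was at 16.0, 3.31, 15.8 and 23.7 CPM and CCNB1, a mitotic cyclin, at 227, 76.1, 239.8 and 245 CPM. The CDK inhibitors went both ways: CDKN1C (p57) was at 2.27, 5.37, 1.85 and 1.61 CPM, CDKN2C (p18) at 85.2, 37.7, 89.9 and 87.5 CPM, and CDKN1A (p21), a p53 target, at 193, 261, 278 and 204 CPM, with a ratio of 1.35 (1.28 to 1.42) that is short of the rule. Values of RRM2 (20.2%, with AC007240.1), TYMS (39.1%, with ENOSF1) and CCNE2 (37.0%, with INTS8) are uncertain through shared exon bases. A different transcript model led in the 2 libraries at RRM2 and CCNE2. RRM1 (log2 ratio -0.999) was short of the rule with total counts as the scale. Summed annotated transcripts gave a log2 ratio of -1.58 for CDC25A in place of -2.18 and -1.62 for CCNE2 in place of -2.27.

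E2F factors bind TTTCCCGC and related letters, and the promoters of RFC3 (chr13:33817899-33818148, plus strand) and GINS2 (chr16:85688955-85689204, minus strand, both GRCh38.p14) are shown because each has a match, in capitals on the other strand:
RFC3: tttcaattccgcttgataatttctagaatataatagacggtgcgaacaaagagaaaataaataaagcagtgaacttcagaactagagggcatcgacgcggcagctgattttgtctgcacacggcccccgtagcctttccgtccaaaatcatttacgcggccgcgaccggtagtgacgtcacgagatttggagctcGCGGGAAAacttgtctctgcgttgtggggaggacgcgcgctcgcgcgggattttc
GINS2: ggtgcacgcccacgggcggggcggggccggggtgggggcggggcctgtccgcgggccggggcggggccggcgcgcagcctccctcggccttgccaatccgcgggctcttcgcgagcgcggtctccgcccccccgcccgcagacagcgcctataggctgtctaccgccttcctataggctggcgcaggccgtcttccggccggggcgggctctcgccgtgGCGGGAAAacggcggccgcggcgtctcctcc

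Counted as TTTCGCGC, TTTGGCGC, TTTCCCGC or TTTGCCGC on either strand, E2F sites were found in 38% of 50 promoter windows of the licensing, replisome and dNTP lists. The share was 3.33% of all promoters in the table, 5.68% of compared loci, 13.2% of lower loci and 3.38% of higher loci. A match of letters is a description of the window and shows no binding.

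Genes of mitosis were lower in most cases. Of 38 mitotic kinases, kinesins and cytokinesis genes, 28 were lower, and every measured member had a ratio under 1 (highest log2 ratio -0.45). CDC20, which starts anaphase through the APC/C ligase, was at 202, 66.7, 212 and 225 CPM, 3.03-fold (2.81 to 3.26) lower. KIF11, the kinesin that pushes spindle poles apart, was at 106, 35.2, 119 and 115 CPM, and KIF4A, a chromosome-bound kinesin, at 177, 55.7, 179 and 182 CPM. ANLN, the anillin of the cleavage furrow, was at 437, 159, 517 and 484 CPM. These 4 were low at 10 min and at or above the untreated level at 30 min. Kinetochore and spindle checkpoint genes were lower in 20 of 31 cases (median -1.08). ZWINT, a scaffold of the outer kinetochore, was at 60.2, 12.6, 59.2 and 61.6 CPM, 4.78-fold (4.06 to 5.63) lower, and SKA3, which couples it to microtubules, at 36.7, 8.18, 36.4 and 39.6 CPM. ZWILCH, part of the complex that ZWINT recruits, was at 78.8, 20.5, 55.5 and 61.6 CPM. In condensin and cohesin 13 of 23 were lower. NCAPG, a condensin subunit, was at 91.3, 27.5, 86.1 and 94.4 CPM and CDCA5 (sororin) at 86.0, 27.6, 91.4 and 90.9 CPM. STAG1, a cohesin subunit that is needed outside mitosis too, was also lower (79.5, 32.6, 66.9 and 65.9 CPM). Values of NCAPG (33.1%, with LCORL) and STAG1 (21.2%, with PCCB) are uncertain through shared exon bases. The most counted transcript model differed between the 2 libraries at ANLN.

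The promoters of ZWINT (chr10:56361260-56361509, minus strand) and KIF4A (chrX:70289854-70290103, plus strand, both GRCh38.p14) are shown for a layout found in many late cell cycle genes, letters that match a CHR element near the start with CCAAT boxes before it, both in capitals on either strand:
ZWINT: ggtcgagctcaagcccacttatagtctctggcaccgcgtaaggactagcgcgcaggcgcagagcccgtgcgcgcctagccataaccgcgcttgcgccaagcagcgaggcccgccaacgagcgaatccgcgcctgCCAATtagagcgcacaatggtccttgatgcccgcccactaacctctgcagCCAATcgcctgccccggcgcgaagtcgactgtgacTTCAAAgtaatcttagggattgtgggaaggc
KIF4A: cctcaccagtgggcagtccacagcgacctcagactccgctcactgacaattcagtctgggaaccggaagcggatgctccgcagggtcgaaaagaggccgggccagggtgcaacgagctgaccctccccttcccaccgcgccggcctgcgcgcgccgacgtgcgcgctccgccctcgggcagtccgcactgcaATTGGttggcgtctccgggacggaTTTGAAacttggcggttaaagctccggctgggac

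CHR, read as TTTGAA on either strand, is bound by MuvB, and CCAAT by NF-Y. TTTGAA was in 67.9% of 56 windows of the kinetochore and mitosis lists, 9.55% of those of compared loci, 20.1% of lower loci and 8.05% of higher loci, against 15.4% of all promoters. CCAAT was in 78.6% of the mitosis windows, 37.3% of compared loci and 35.7% of all promoters. In the licensing, replisome and dNTP windows TTTGAA was in 2%.

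Most repair genes had ratios under 1, and the lists differed in degree. Of the Fanconi and homologous recombination list, 19 of 32 were lower, against 5.52% of all compared loci. In that list 31 of 32 had a ratio under 1 (median -1.08). BLM, the helicase of Bloom syndrome, was at 23.9, 6.21, 21.4 and 26.7 CPM, 3.85-fold (3.04 to 4.92) lower, and BRCA2 at 27.1, 7.78, 31.2 and 33.7 CPM. USP1, which removes ubiquitin from FANCD2 and PCNA, was at 93.8, 33.5, 86.5 and 104 CPM. In the list of end joining and damage signalling genes, 2 of 21 were lower, although 18 had a ratio under 1 (median -0.55). The lower ones were H2AX, the histone phosphorylated at breaks (198, 66.7, 191 and 219 CPM), and DCLRE1C, the nuclease Artemis (12.3, 4.60, 9.36 and 6.998 CPM). TOP2A, the topoisomerase II of dividing cells and a doxorubicin target, was at 595, 265, 613 and 647 CPM, 2.25-fold (2.16 to 2.34) lower. TOP1 was at 139, 97.6, 116 and 142 CPM, and TOP2B, taken from its summed annotated transcripts because it has no locus of its own, at 189.97, 177, 190.1 and 193 CPM. Of 31 compared p53 pathway genes, 1 was higher and 1 lower, shares no larger than the 5.28% and 5.52% of all compared loci. The higher was GDF15, a stress cytokine (4.50, 15.3, 15.0 and 6.50 CPM), and the lower PPM1D, the phosphatase WIP1 (20.7, 10.03, 20.1 and 20.3 CPM). CBR1, a carbonyl reductase that turns doxorubicin into its alcohol, was at 45.8, 100.1, 96.9 and 93.4 CPM and stayed near that level in all treated libraries. Values of CBR1 (18.9%, with CBR1-AS1) are uncertain through shared exon bases. The model with the most counts was not the same at 0 and 10 min at DCLRE1C. CBR1 (log2 ratio 0.10) was short of the rule against the median of the 0, 30 and 360 min libraries. DCLRE1C (log2 ratio -0.31) was short of the rule with annotated transcripts summed per gene. PPM1D (log2 ratio -0.99) was short of the rule with total counts as the scale.

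**Figure D2:**
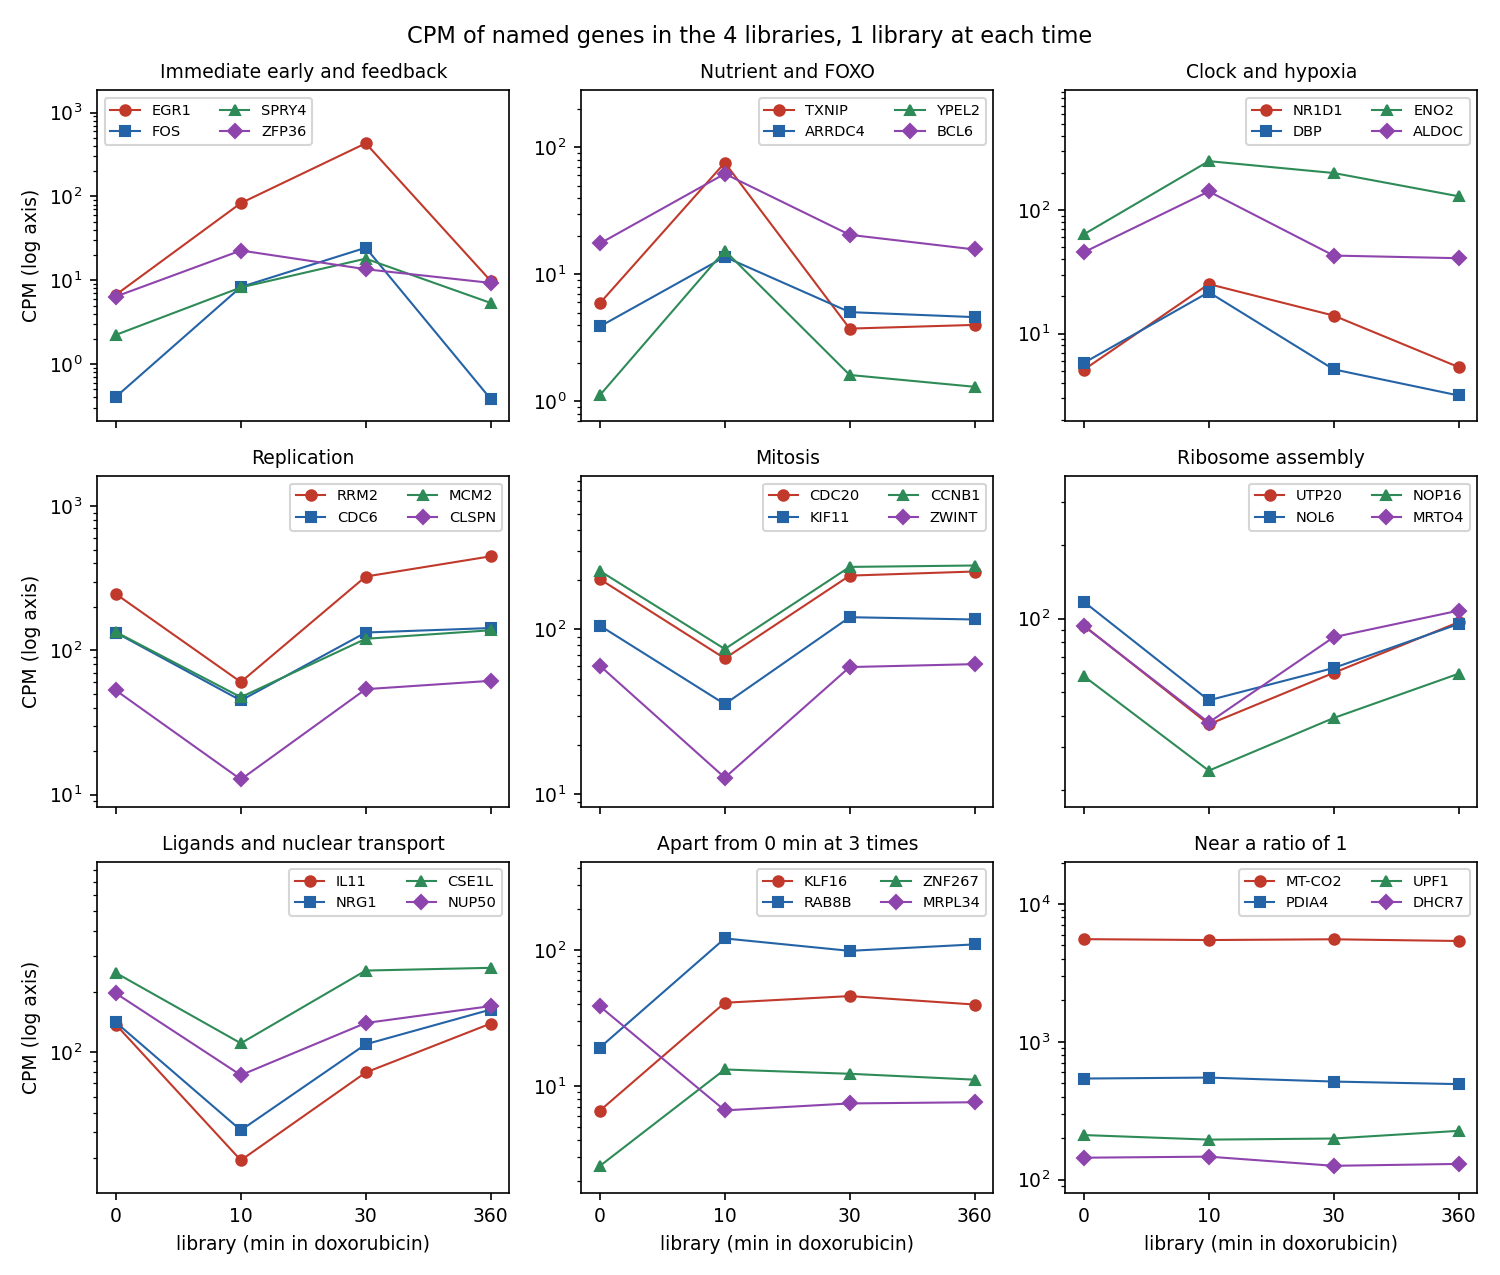
Lines join the CPM (log axis) of single genes in the libraries at 0, 10, 30 and 360 min, 1 library per time, in 9 groups. Replication, mitosis and ribosome genes dip in the 10 min library (RRM2 at 60.4 CPM), TXNIP peaks there at 75.6 CPM, EGR1 peaks at 30 min at 430.2 CPM, and KLF16, RAB8B, ZNF267 and MRPL34 stand apart from 0 min at all 3 treated times.

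Most genes that build ribosomes had ratios under 1, whereas the genes of the ribosome itself lay near 1. Of 112 measured genes of RNA polymerase I and III and of small and large subunit assembly, 107 had a ratio under 1 (median -0.73), and 22 passed the rule as lower (19.6%, against 5.52% of all compared loci). None was higher, and in the subunit assembly lists no measured member was above a ratio of 1. UTP20, a scaffold of the small subunit processome (ENSG00000120800, chromosome 12, 101280109 to 101386616), was at 93.7, 37.1, 60.1 and 96.6 CPM, 2.53-fold (2.28 to 2.80) lower. NOL6, another processome protein, was at 117, 46.4, 62.9 and 95.02 CPM and RRP12, an export factor of the subunits, at 91.1, 33.1, 70.8 and 95.6 CPM. EBNA1BP2, MRTO4 and NOP16 assemble the large subunit, and the first of them was at 128, 46.9, 118 and 129 CPM. MRTO4 was at 93.2, 37.7, 84.0 and 108 CPM and NOP16 at 58.2, 23.99, 39.3 and 59.6 CPM. In these genes the 10 min library was lowest, the 30 min library lay between, and 360 min was near the untreated level. POLR1G, a subunit of RNA polymerase I, was furthest down, at 39.8, 6.45, 19.5 and 37.1 CPM, 6.17-fold (4.98 to 7.83) lower. POLR1B, the second-largest subunit of RNA polymerase I, was at 37.1, 18.2, 26.3 and 39.8 CPM and UBTF, its promoter factor, at 182, 89.0, 145 and 167 CPM. By contrast, none of 78 compared cytosolic ribosomal protein genes passed the rule (median -0.06), and their summed level was 36659 CPM at 0 min and 35268 CPM at 10 min. UTP20 stands for the group because its promoter (chr12:101279855-101280104, plus strand, GRCh38.p14) holds CACGTG, the letters of the E-box that MYC and MAX bind, in capitals:
UTP20: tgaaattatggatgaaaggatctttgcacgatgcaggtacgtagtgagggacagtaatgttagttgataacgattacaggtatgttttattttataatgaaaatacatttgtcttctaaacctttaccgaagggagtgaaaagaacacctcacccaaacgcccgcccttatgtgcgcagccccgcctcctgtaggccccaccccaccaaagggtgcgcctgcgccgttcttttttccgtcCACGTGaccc

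Shared exon bases leave EBNA1BP2 (18.8%, with CFAP57), NOP16 (12.02%, with ARL10) and POLR1G (43.5%, with ERCC1) uncertain. The most counted transcript model differed between the 2 libraries at RRP12, POLR1G and POLR1B. POLR1B (log2 ratio -0.97) and UBTF (log2 ratio -0.97) were short of the rule with total counts as the scale. POLR1B (log2 ratio -0.996) was short of the rule with annotated transcripts summed per gene. UBTF (log2 ratio -0.91) was short of the rule against the median of the 0, 30 and 360 min libraries. CACGTG was in 34.5% of 84 windows of the ribosome assembly and RNA polymerase I lists, in 10.2% of those of compared loci, 14.7% of lower loci, 8.05% of higher loci and 7.43% of all promoters. An ETS site, CCGGAAG, was in 40.5% of the ribosome windows, 20.02% of compared loci and 8.05% of higher loci. No form of these motifs without free letters holds another whole. The CArG box and the paired half-sites have free letters that may include CCAAT, and the paired half-sites may also include CACGTG.

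**Figure D3:**
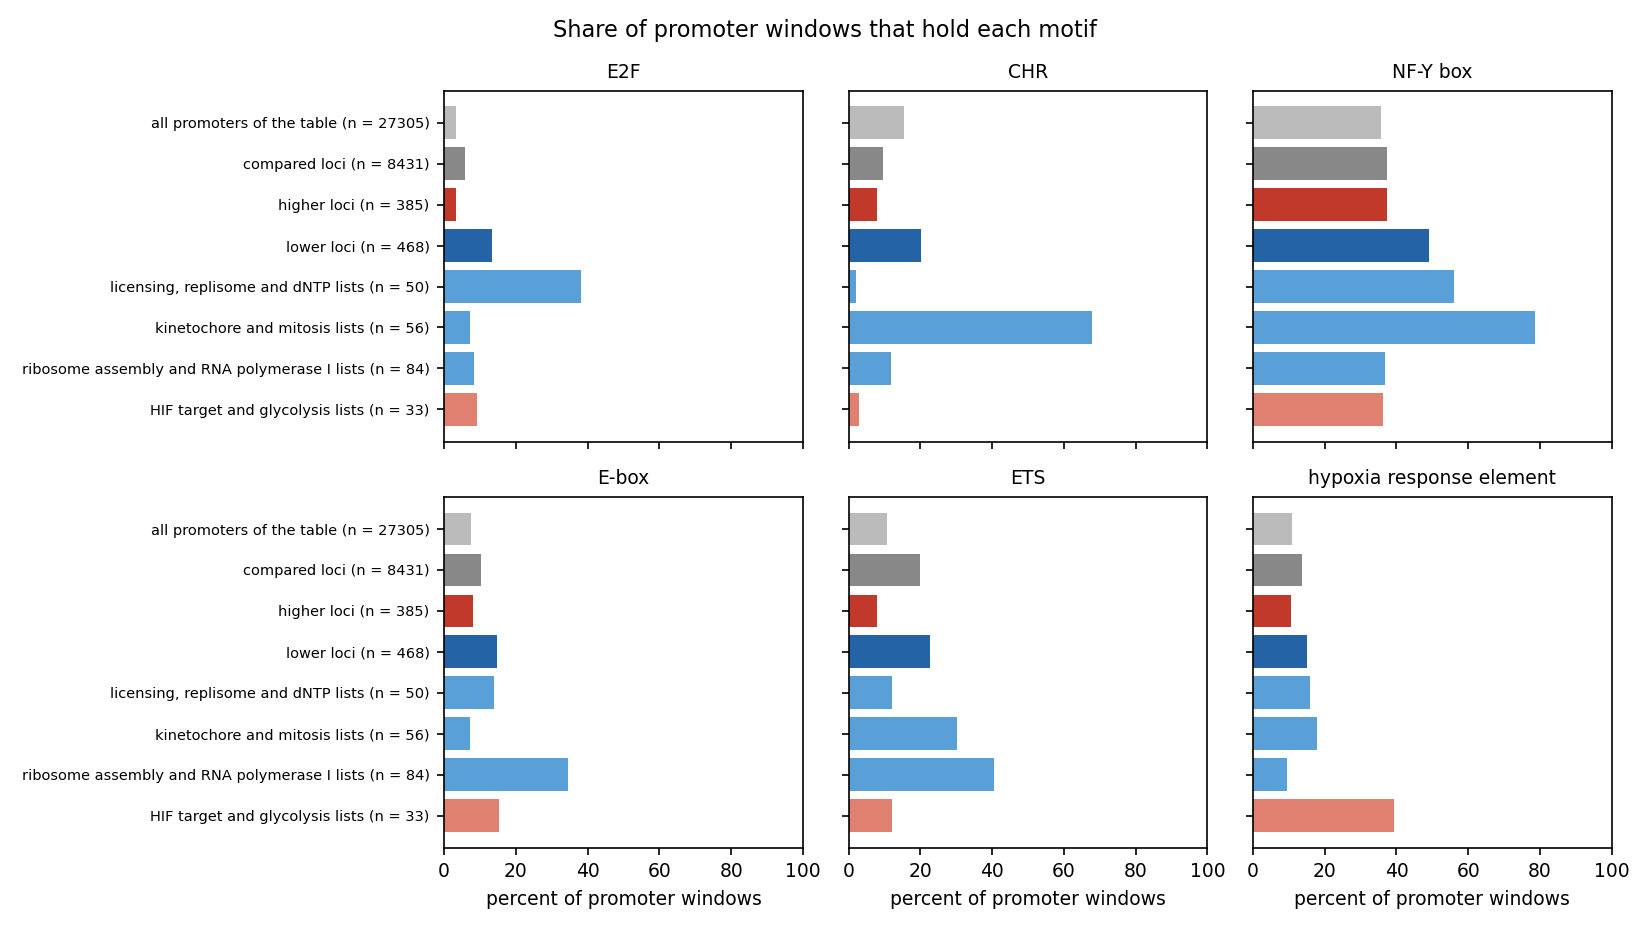
Bars give the percent of 300-base promoter windows that hold each of 6 motifs, for all promoters, compared, higher and lower loci and 4 groups of lists, with the number of windows beside each name (the NF-Y box is CCAAT). CHR reaches 67.9% in the kinetochore and mitosis lists against 9.55% of compared loci, and E2F 38% in the replication lists against 5.68%.

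In other growth lists most members had a ratio under 1, and fewer passed the rule. ODC1, the first enzyme of polyamine synthesis, was at 314, 126, 318 and 390.5 CPM, 2.49-fold (2.36 to 2.63) lower. The polyamine genes SRM (119.7, 53.6, 125 and 134 CPM) and AMD1 (115, 54.6, 89.2 and 118 CPM) were lower too, and SAT1, which breaks polyamines down, was higher (63.2, 159, 68.7 and 60.5 CPM). That made 3 lower and 1 higher of 9 compared polyamine genes, with synthesis and breakdown on opposite sides. Importins, exportins and nucleoporins had 8 of 47 lower, against 5.52% of all compared loci. Of the 47, 46 had a ratio under 1 (median -0.59, against -0.02 over all loci). CSE1L, the exporter of importin alpha, was at 248, 111, 254 and 262 CPM, RAN, the GTPase that powers transport, at 301, 139, 210.4 and 234 CPM, and NUP50, a basket nucleoporin, at 196, 77.0, 139.7 and 169 CPM. Among splicing factors SRSF2 (111, 36.3, 99.96 and 127 CPM) and SRSF7 (109, 51.1, 98.2 and 124 CPM) were lower, and all 19 measured hnRNP genes had a ratio under 1, with HNRNPAB (374, 158, 354 and 433 CPM) and HNRNPM lower. Of 22 measured chaperone genes, 19 had a ratio under 1 (median -0.51), and 4 of 21 compared were lower. HSP90AA1, the inducible HSP90, was at 1203, 501, 1258 and 1259.5 CPM and DNAJA1, a co-chaperone of HSP70, at 287, 121, 214 and 311 CPM, and the others were HSPH1 and AHSA1. The chaperonin genes CCT3 (283, 137, 275 and 283 CPM) and CCT6A (605, 293, 550.0 and 607 CPM) were lower as well. In the proteasome list PSME3, an activator cap of the nucleus, was the only one past the rule (138, 29.7, 114 and 139.6 CPM), though 34 of 36 members had a ratio under 1. EIF5, the GTPase activator of translation start, was at 198, 68.3, 232 and 121 CPM and AIMP2, a scaffold of tRNA synthetases, at 67.3, 26.4, 59.2 and 70.1 CPM. Values of SRSF2 (36.7%, with MFSD11) and AIMP2 (28.9%, with EIF2AK1) are uncertain through shared exon bases. Leading models differed between the libraries at SAT1, RAN, PSME3 and EIF5. CCT3 (log2 ratio -0.99) and CCT6A (log2 ratio -0.99) were short of the rule with total counts as the scale. RAN (log2 ratio -0.76) was short of the rule against the median of the 0, 30 and 360 min libraries.

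In 15 of the 79 lists no member passed the rule, and these were pathways as well as lists of cell type markers. Over all compared loci, 5.28% were higher and 5.52% lower. At such shares a short list may have no call, and only 4 metallothioneins, 3 epithelial markers and 1 neural marker were compared. Cholesterol synthesis stood at a median of 0.15 over 24 genes, with DHCR7, its last reductase, at 144, 147, 126 and 129.9 CPM. The unfolded protein response stood at 0.04 over 22, and its disulphide isomerase gene PDIA4 was at 541, 549.9, 514 and 493 CPM. Nuclear genes of the respiratory chain stood at -0.26 over 55, with 52 under a ratio of 1 and none beyond a log2 ratio of -0.85. The mitochondrial genome stood at -0.04, and MT-CO2, a subunit of cytochrome oxidase, was at 5556, 5475, 5544 and 5388 CPM. NRF2 and antioxidant genes (median -0.12), metallothioneins (-0.23), YAP and TEAD targets (0.11) and the Wnt pathway (-0.07) also had none. FTH1, the ferritin heavy chain, was at 1093, 1091, 1135 and 1125 CPM and UPF1, the nonsense-mediated decay helicase, at 210.4, 195, 199 and 226 CPM. UPF1 lay nearer to 1 than most of its list, which had a median of -0.39 and 13 of 15 members under a ratio of 1. With 1 library a side, such values show that no 2-fold difference was seen and not that the levels were the same. Shared exon bases leave FTH1 (62.4%, with BEST1) uncertain.

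Single genes of signalling, immunity and chromatin passed the rule in lists where few others did. IL11, a cytokine of stromal cells, was at 137, 29.1, 79.4 and 139 CPM, 4.71-fold (4.24 to 5.25) lower, and NRG1, the neuregulin ligand of ERBB receptors, at 141, 41.0, 109.6 and 163 CPM. ID2, an inhibitor of basic helix-loop-helix factors, was lower as well (26.0, 8.06, 17.4 and 22.3 CPM). ICAM1, a leukocyte adhesion receptor, was higher (2.70, 8.16, 4.27 and 5.42 CPM). STAT2, which carries interferon signals, was at 50.1, 115, 56.4 and 52.8 CPM and HLA-E, a class I molecule read by natural killer cells, at 74.0, 158, 64.9 and 67.4 CPM. Both were high at 10 min alone. Of the 25 measured interferon genes, 18 had a ratio above 1 (median 0.40), and STAT2 was the one past the rule. NOTCH3, a receptor of mural cells, was at 35.4, 72.9, 39.5 and 37.9 CPM, and ITGAX, an integrin of myeloid cells, at 10.3, 39.2, 6.99 and 7.02 CPM. Chromatin genes lay on both sides: KDM6B, which removes H3K27 methylation, was at 22.0, 52.4, 35.3 and 21.6 CPM, and EZH2, which writes it, at 84.0, 37.5, 86.0 and 96.6 CPM. UHRF1, which brings DNA methyltransferase to the fork, was at 205, 52.7, 175 and 229 CPM. AGO1, a microRNA effector, was at 58.5, 16.8, 21.9 and 24.2 CPM, low in all treated libraries. SGSH, a lysosomal sulphatase, was at 0.798, 7.38, 2.76 and 2.09 CPM, and CTSF, a lysosomal protease, at 14.8, 30.1, 11.5 and 11.3 CPM. In the smooth muscle and cytoskeleton list 7 of 11 had a ratio under 1 (median -0.14), and 2 were higher. TPM2, a tropomyosin of smooth muscle, was at 21.4, 60.9, 36.2 and 34.5 CPM and LMOD1, an actin nucleator, at 2.25, 7.17, 2.78 and 1.06 CPM. In the endothelial and immune marker lists 1 gene each was higher, TIE1 of endothelium (13.1, 28.8, 14.7 and 11.1 CPM) and CD3D of T cells (2.06, 5.98, 1.87 and 2.45 CPM), while KDR, CD14 and FCGR3A had 0 counts in both libraries. Summed endothelial markers were 27.5, 48.5, 28.3 and 23.9 CPM, and summed immune markers 12.96, 18.3, 8.28 and 9.67 CPM. Their part in the results was not tested. Exon bases shared with another gene make ICAM1 (22.0%, with ICAM4-AS1) and LMOD1 (13.5%, with ENSG00000223774) uncertain. The most counted transcript model differed between the 2 libraries at ID2, EZH2, UHRF1 and SGSH. AGO1 (log2 ratio -0.53), ICAM1 (log2 ratio 0.94), NOTCH3 (log2 ratio 0.94) and TPM2 (log2 ratio 0.82) were short of the rule against the median of the 0, 30 and 360 min libraries. UHRF1 (log2 ratio -0.23) was short of the rule with annotated transcripts summed per gene.

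Beyond the genes of these lists, the ranking of increases by the interval bound nearest to 1 brought up genes of varied roles. NABP1, a single-stranded DNA-binding protein of the repair machinery (ENSG00000173559, chromosome 2, 191678068 to 191696659), stood out by level: it was at 164, 602, 228 and 174 CPM, 3.66-fold (3.49 to 3.83) higher. CHST1, a keratan sulphate sulphotransferase, was at 3.65, 19.1, 5.20 and 4.07 CPM and SLC27A1, a fatty acid transporter, at 13.3, 58.4, 25.1 and 19.8 CPM. The endogenous retroviral envelope gene ERVV-2 was at 3.12, 16.5, 6.04 and 3.28 CPM. Each of these was highest at 10 min. MAP2, a microtubule protein of dendrites, was at 11.5, 45.4, 8.92 and 10.7 CPM, and the kinase gene ALPK1, a sensor of a bacterial sugar, at 2.55, 12.7, 4.05 and 2.51 CPM. SLC29A4, a monoamine transporter, was at 5.34, 22.4, 5.11 and 3.88 CPM, NATD1 at 9.84, 37.9, 8.90 and 7.86 CPM and DNHD1 at 10.5, 39.6, 9.50 and 7.91 CPM. A few genes stayed away from their untreated level at every later time. RAB8B, a GTPase of membrane traffic, was at 19.2, 121, 98.4 and 109.7 CPM, and ZNF267 at 2.59, 13.2, 12.3 and 11.1 CPM. DAG1, dystroglycan, was at 21.5, 204, 51.7 and 231 CPM and ADNP2 at 7.87, 45.9, 12.3 and 55.3 CPM; both dropped back at 30 min and were high again at 360 min. A different transcript model led in the 2 libraries at NABP1, SLC27A1, MAP2, ALPK1 and DAG1. RAB8B (log2 ratio 0.30) and ZNF267 (log2 ratio 0.25) were short of the rule against the median of the 0, 30 and 360 min libraries. SLC27A1 (log2 ratio 0.70) was short of the rule with annotated transcripts summed per gene.

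Among the leading decreases outside the cell cycle lists were genes with no shared role. YWHAB, a 14-3-3 protein (ENSG00000166913, chromosome 20, 44885676 to 44908532), was at 314, 87.8, 323 and 268 CPM, 3.57-fold (3.36 to 3.81) lower. ANKRD52, a regulatory subunit of protein phosphatase 6, was at 279, 77.2, 111 and 278 CPM and GMFB, which debranches actin, at 105, 28.4, 38.6 and 117 CPM. All 3 were lowest at 10 min, and ANKRD52 and GMFB were still low at 30 min. PIGW, of GPI anchor synthesis, was at 39.0, 9.15, 28.0 and 39.2 CPM, and DCTN5, of dynactin, at 102, 27.1, 93.2 and 43.7 CPM. RTKN2 was at 12.01, 2.27, 16.2 and 15.2 CPM and FAM111B, a protease, at 40.0, 8.35, 29.97 and 38.2 CPM. KPNA6, an importin alpha, was at 149.7, 25.9, 72.9 and 138 CPM and ZBTB38, a reader of methylated DNA, at 192, 30.2, 139 and 195 CPM. MRPL34, a protein of the mitochondrial ribosome, was at 38.4, 6.63, 7.45 and 7.60 CPM, low in all treated libraries. TRIM56, a ubiquitin ligase of antiviral signalling, was at 51.7, 13.1, 21.2 and 28.9 CPM, and its direction depended on whether loci or annotated transcripts were counted. Shared exon bases leave PIGW (20.8%, with MYO19), DCTN5 (26.0%, with ENSG00000260482) and MRPL34 (13.2%, with ABHD8) uncertain. Leading models differed between the libraries at YWHAB, KPNA6, ZBTB38 and TRIM56. MRPL34 (log2 ratio -0.20) was short of the rule against the median of the 0, 30 and 360 min libraries. For TRIM56 the direction reversed with annotated transcripts summed per gene (log2 ratio 1.001). Summed annotated transcripts gave a log2 ratio of -1.24 for ANKRD52 in place of -1.85, -3.89 for KPNA6 in place of -2.53 and -4.70 for ZBTB38 in place of -2.67.

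Families gathered by symbol, chosen after their values were seen, are read against 5.28% higher and 5.52% lower of all compared loci. Collagens had 4 higher and 0 lower of 19 compared (median 0.50), COL26A1 and COL8A2 among them, with COL8A1, a short-chain collagen of vessel walls, at 62.2, 148, 61.3 and 87.0 CPM, and COL18A1, the source of endostatin, at 16.6, 37.3, 19.3 and 15.2 CPM. ADAMTS proteases and their relatives, which cut matrix proteoglycans, had 5 higher and 1 lower of 13 compared, with ADAMTS7, ADAMTS10 and ADAMTS13 among the higher and ADAMTSL1 the lower one. ADAMTS14, a procollagen peptidase, was at 31.2, 77.1, 9.45 and 19.5 CPM and ADAMTSL4, a fibrillin-binding relative, at 14.5, 49.8, 14.9 and 12.1 CPM. Interleukins and their receptors had 5 higher and 1 lower of 21 compared: the higher ones were all receptor genes, IL4R (17.2, 38.8, 16.1 and 37.2 CPM), IL1RAP (19.95, 41.3, 14.8 and 18.8 CPM), IL3RA, IL10RA and IL17RD, and the lower one was IL11. Solute carriers had 17 higher and 2 lower of 180 compared. SLC6A6, the taurine transporter, was at 339.9, 726, 299 and 254 CPM, and SLC12A8 at 72.5, 161, 71.2 and 62.6 CPM. SLC25A20, the mitochondrial carnitine carrier, was lower (29.99, 13.9, 31.7 and 25.3 CPM). Mitochondrial ribosomal proteins had 1 higher and 5 lower of 66 compared (median -0.53, 61 of 66 under a ratio of 1), the higher one being MRPL10 (17.9, 45.8, 20.3 and 22.1 CPM) and the lower ones MRPL1, MRPL15, MRPL19, MRPL34 and MRPS35. RAB3B, a RAB of secretory vesicles, was higher (79.8, 258, 190.04 and 184 CPM), as were 3 of 42 compared genes with RAB names in all, the others being RAB8B and the effector gene RAB11FIP4, while RAB35 was lower. Zinc finger genes of chromosome 19 had shares near those of all loci, 7 higher and 10 lower of 110 compared, as did those of other chromosomes, 9 higher and 11 lower of 165 compared. Exon bases shared with another gene make COL18A1 (16.4%, with SLC19A1) and ADAMTSL4 (11.4%, with ADAMTSL4-AS1) uncertain. The model with the most counts was not the same at 0 and 10 min at ADAMTSL4, IL4R and SLC12A8. ADAMTS14 (log2 ratio 0.14) and SLC12A8 (log2 ratio 0.32) were short of the rule with annotated transcripts summed per gene. RAB3B (log2 ratio 0.49) was short of the rule against the median of the 0, 30 and 360 min libraries.

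Long non-coding RNA loci were more often higher than coding ones. Of 466 compared loci of lincRNA, antisense and related classes, 62 were higher (13.3%) and 22 lower (4.72%), against 4.55% and 5.48% of 9943 protein-coding loci. Loci of these classes with any count numbered 3940, 4171, 3889 and 3916, and those of all kinds 27461, 29129, 27314 and 27353, both the most at 10 min. Protein-coding loci that were higher had a median of 6.70 CPM at 0 min, against 38.5 CPM for all compared protein-coding loci. Non-coding and coding loci were not matched for level, and the part of level in their difference was not tested. MALAT1, a nuclear RNA of speckles, was at 104, 209, 128 and 121 CPM, with a ratio of 2.0003 (1.88 to 2.13) just inside the rule. PCAT6 was at 1.28, 6.28, 1.43 and 0.989 CPM and LINC02154 at 2.78, 11.3, 3.002 and 2.84 CPM, both high at 10 min alone. NALT1, a transcript beside NOTCH1, was at 3.41, 16.4, 4.32 and 2.67 CPM as a locus. The lincRNA ENSG00000276850 on chromosome 10 was at 297, 75.4, 291 and 334 CPM, and DLEU2, the host of miR-15a and miR-16-1, at 8.19, 2.60, 8.37 and 9.23 CPM; both were low at 10 min alone. The small nucleolar RNA host genes, in contrast, had none of 14 past the rule (median -0.26). Shares of counts by transcript class differed little. Protein-coding models held 87.6% of counts in annotated models at 0 min and 86.6% at 10 min, and retained-intron models 5.71% and 5.98%. Nonsense-mediated decay models held 2.66% and 2.81%. The mitochondrial ribosomal RNAs held 0.429%, 0.651%, 0.351% and 0.421% of all counts, highest at 10 min. Assembled models outside the annotation held 10.999%, 11.7%, 10.7% and 11.1%. ENSG00000276850 (log2 ratio -0.85) was short of the rule with annotated transcripts summed per gene. For NALT1 the direction reversed with annotated transcripts summed per gene (log2 ratio -2.41). MALAT1 (log2 ratio 0.79) was short of the rule against the median of the 0, 30 and 360 min libraries.

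Shifts between transcript models were about as frequent at 10 min as at the later times. A gene was counted as shifted where models holding 33.3% or more of its counts changed places and the interval of the leading model's share at 0 min did not overlap that at 10 min. Of 6306 genes with at least 20 CPM in both libraries and several models, 1302 were shifted (20.6%), against 1267 of 6658 (19.0%) at 30 min and 1265 of 6667 (19.0%) at 360 min, all against the same 0 min library. Among the shifted genes at 10 min, 75 went from a coding to a non-coding leading model and 71 the other way. In 597 of them both leading models were annotated and differed, and 19 of these pairs had the same introns. The estimated counts divide reads among models that share exons, and the part of that division in the shifts was not tested.

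CCNA2, the cyclin of S phase and G2 and one of the lower loci, had its counts in model CCNA2-201 at 99.2%, 0.272%, 0.341% and 99.7% and in CCNA2-202 at 0.842%, 99.7%, 99.7% and 0.344%. Both code for protein and share every intron, and their ends lie 1 base apart, at 121816444 to 121823932 and 121816445 to 121823933 on chromosome 4. So nearly all counts of the gene stood in the second model at 10 and 30 min and in the first at 0 and 360 min. TYRO3, a receptor kinase of the TAM family, had TYRO3-201 at 97.6%, 3.06%, 96.8% and 95.3%, and an assembled model took its place at 10 min alone, while the locus stood at 110.4, 103, 74.7 and 107 CPM. NAB2, the corepressor that EGR1 induces and that restrains it, had NAB2-201 at 84.3%, 0.0682%, 96.4% and 91.9%, again with an assembled model at 10 min alone. WDR1, which takes actin filaments apart, had WDR1-204 at 0.605%, 95.1%, 53.02% and 0.181%, and its locus stood at 662, 571, 636 and 571 CPM. FRMD3 had FRMD3-207 at 2.25%, 86.9%, 78.5% and 0%. IP6K1, an inositol hexakisphosphate kinase, had IP6K1-201 at 1.40%, 94.8%, 93.0% and 94.1%, a model that led in every treated library and not at 0 min. CELSR2, a cadherin of planar polarity, had CELSR2-201 at 84.7%, 0%, 9.10% and 0%, so it left its untreated model at all 3 times. TOP1MT, the topoisomerase of mitochondria, had TOP1MT-218 at 85.1%, 0.106%, 44.6% and 1.55% and TOP1MT-201 at 2.39%, 90.3%, 10.3% and 59.2%, with the locus at 36.3, 33.0, 27.7 and 34.3 CPM. SFPQ, a splicing factor of paraspeckles, had one assembled model at 89.8%, 0%, 0% and 0%, so the model that led at 0 min held almost none of the counts in any treated library. Summed annotated transcripts gave a log2 ratio of -4.62 for TYRO3 in place of -0.10 and 0.57 for WDR1 in place of -0.21.

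**Figure D4:**
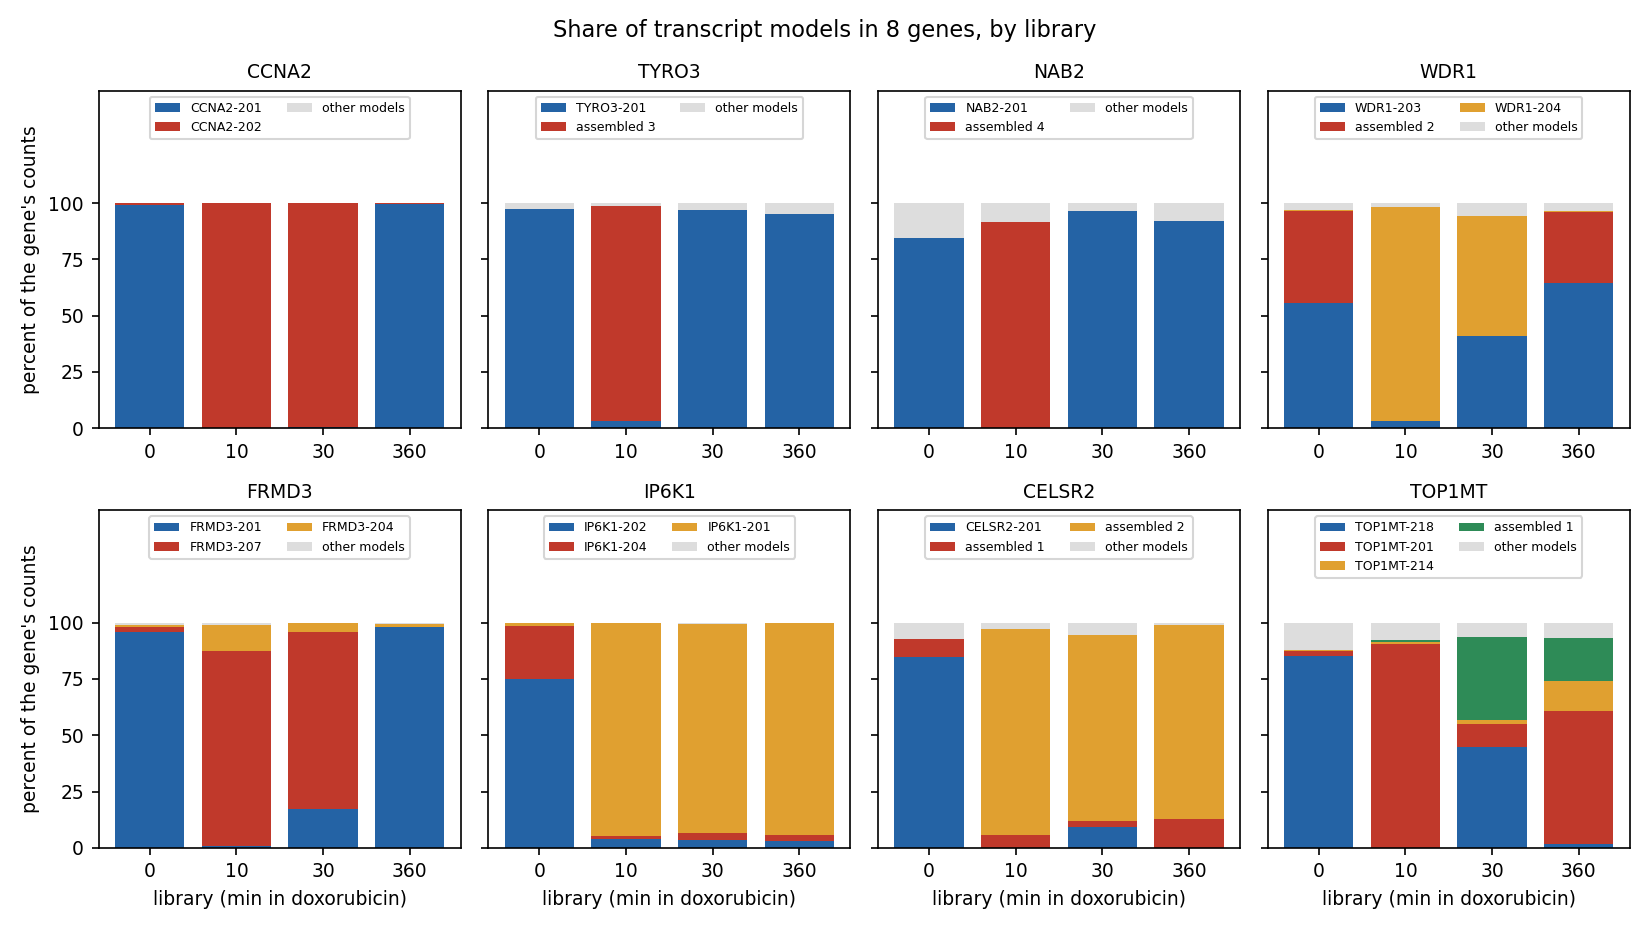
Stacked bars give the percent of a gene's counts in each transcript model in the libraries at 0, 10, 30 and 360 min for 8 genes chosen from those with the largest shifts at 10 min, with assembled models named by their last number. TYRO3 and NAB2 differ at 10 min alone, CCNA2 and FRMD3 at 10 and 30 min, and IP6K1 and CELSR2 at all 3 times.

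Lists differed in the share of intron-retaining models, which are mostly kept in the nucleus or degraded. For the SR splicing factors and their kinases the share was 11.5%, 17.2%, 19.3% and 17.7%, lower at 0 min than in the 3 treated libraries. In the replication licensing list it was 14.8%, 4.57%, 13.7% and 12.6%, low at 10 min alone, where the list's summed level was 668 CPM against 1505 CPM at 0 min. For cytosolic tRNA synthetases it was 5.05%, 10.8%, 5.12% and 12.1%, high at 10 and 360 min. The leading model differed between the 2 libraries at 25.1% of compared loci with several models, 34.4% of the higher ones and 30.1% of the lower ones.

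Base composition moved with the ratio. Protein-coding loci were put in 5 groups of like size by the GC content of their most counted annotated transcript, and the median log2 ratio at 10 min went from -0.20 in the lowest group to 0.09 in the highest. In the lowest group 50 loci were higher and 150 lower of 1988, and in the highest 152 were higher and 52 lower of 1988. At 30 min the same medians were -0.02 and 0.05, and at 360 min 0.05 and -0.02, so the 10 min library had the widest spread. Higher loci had a median GC content of 54.9%, lower loci of 45.2% and all compared ones of 48.6%. Taken relative to the median of its own GC group, the list median was -1.07 for mitotic kinases and kinesins, -1.08 for the replisome, -0.65 for the small subunit processome and 0.78 for HIF targets, each on the same side of 0 as without it. Lists with medians near 0 did change side, among them cytosolic ribosomal proteins (to 0.02) and the mitochondrial genome (to 0.11). The part of base composition in the single-gene values was not tested.

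**Figure D5:**
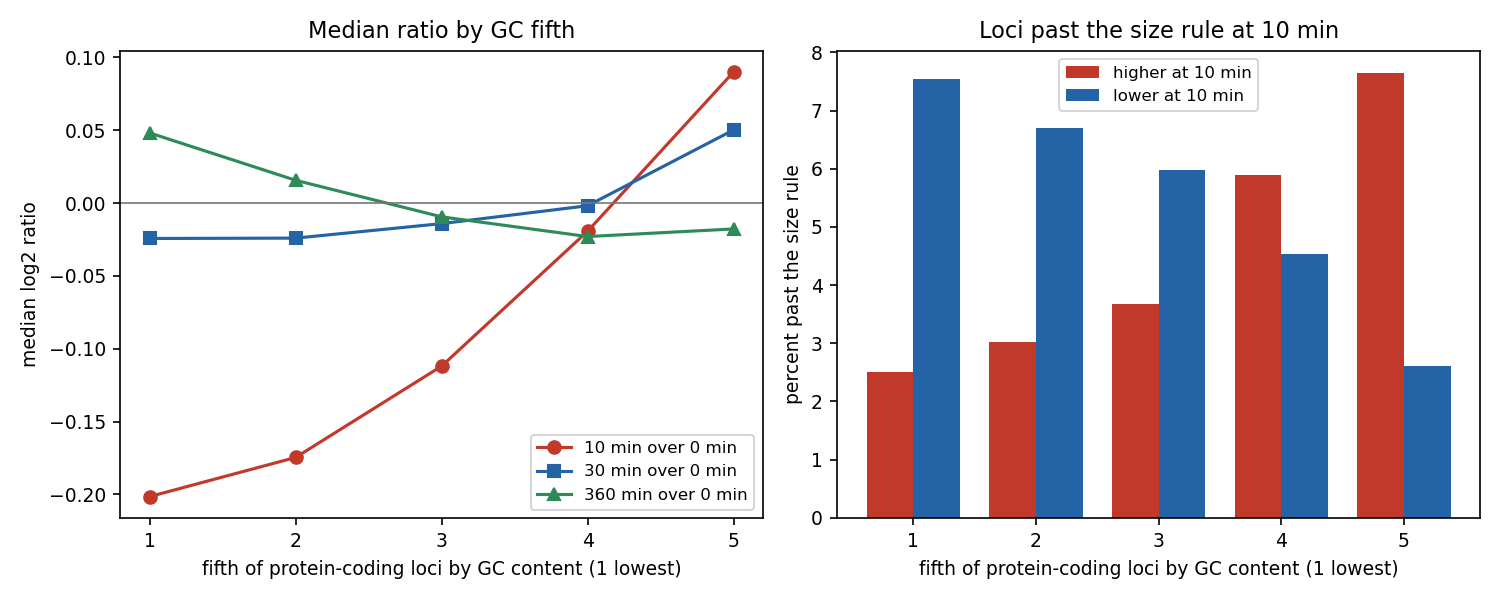
On the left, the median log2 ratio of protein-coding loci over 0 min is plotted by GC group for 10, 30 and 360 min, and on the right bars give the percent of loci past the size rule at 10 min in each group. The 10 min line climbs from -0.20 to 0.09, and higher loci go from 2.52% to 7.65% while lower ones go from 7.55% to 2.62%.

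The loci called at 10 min were also set beside the later libraries. Of the 641 higher loci, 599 had a higher CPM at 10 min than at both 30 and 360 min, and 326 were at least 2-fold above both. Of the 670 lower loci, 648 were lower at 10 min than at both, and 394 at least 2-fold below both. Both sets were picked by their 10 min values, which by itself favours such counts. Like counts for loci picked at 30 or 360 min were not made. The list medians against 0 min at 10, 30 and 360 min were -1.22, -0.10 and 0.09 for replication licensing and -1.19, 0.15 and 0.17 for mitotic kinases and kinesins. They were -0.75, -0.19 and 0.10 for large subunit assembly, 0.62, 0.45 and 0.10 for HIF targets and 0.33, 0.84 and 0.03 for AP-1 factors. The 3 comparisons share the 0 min library. Against the median of the 0, 30 and 360 min libraries the AP-1 median turned to -0.30. By the medians against 0 min cell cycle genes lay near their untreated level at 30 min, while AP-1 and HIF genes did not. With 1 library at 10 min, a property of that library and an effect of 10 min in the drug or the medium cannot be told apart. Near the threshold, MALAT1 (ratio 2.0003) and RACGAP1, of the central spindle (0.49999), lay just inside, and LMF1 (1.9995) and the proteasome gene PSMB5 (0.5002) just outside.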

How the data were processed

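Poly(A) RNA of AC16 cells was sequenced from 1 library per time (0, 10, 30 and 360 min). The authors deposited estimated counts per assembled locus and per transcript model, whole numbers without normalization, so rounding changed nothing. HISAT2, GRCh38 and DESeq2 are named per the submitters' processing notes; the counter, the annotation and the use of strand are each not given in the sources used here.

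Loci were named where their counts equalled the sum over annotated transcripts of 1 GENCODE 29 gene (15289 loci, or 705 more with 95% of counts from 1 gene), which held 87.5% of counts. Of the annotated transcript identifiers, 197268 matched GENCODE 29 and 18608 did not. CPM used TMM factors from edgeR 4.0.16 (R 4.3.3). Ratios have exact conditional binomial (Clopper-Pearson) intervals from SciPy 1.17.1 on counts divided by 4, the assumed worth of a read pair, and no estimate of dispersion is possible with 1 library a side. The floor for a count of 0 is 3 read pairs. List members were measured from 1 CPM and compared from 5 CPM. Promoters are RefSeq windows of GRCh38.p14, searched on both strands. The methods were tested on simulated data. Simulated data cannot show the spread between the libraries used here, so the test does not bear on whether the called differences would recur. The division of reads among models that share exons was not tested either, so the transcript shifts were not checked for it.

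Genes were picked for naming by rule. In each list these were up to 6 members with the largest ratios past the size rule, or up to 2 near a ratio of 1 where none passed. Ranks 1 to 30 of increases and of decreases at 10 CPM or more, the 20 largest transcript shifts and 10 long non-coding genes each way were added. Not all of them are described in the results. Those left out include the decreases ATF5 (rank 5, log2 ratio -2.51), CCDC137 (rank 6) and ARMC6 (rank 7, log2 ratio -2.33). Also left out are the increases MIR3936HG (rank 5) and MSC-AS1 (rank 8) and the shift of PAPPA2. Other genes were named after their values were seen. The members, lists, motifs and comparison were chosen with earlier results of these data known, and the families by symbol and the base composition groups after seeing the data. Alternatives were other scalings, CPM minimums, baselines, units and shift sizes.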

Additional observations from a re-analysis of the deposited data

How the results depend on the processing

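With loci of at least 10 CPM, 402 were higher and 575 lower, and with no minimum 2554 were higher and 1598 lower. Total counts as the scale gave 754 and 572, median-of-ratios factors 673 and 642, summed annotated transcripts 901 and 884, loci with 1 leading model in both libraries 466 and 498, and the median of the 0, 30 and 360 min libraries as baseline 644 and 666. Relative to GC groups, an alternative chosen after seeing the data, 610 were higher and 451 lower, against 533 and 578 over the same loci. Counts undivided, or with 2 counts to a read pair, gave the same numbers of higher and lower loci. At 5 CPM or more a 2-fold ratio has an interval that excludes 1 in each setting, so this could not check the worth of a pair. Of low values from 1 to 24 at loci with 1 model, 33.5% were multiples of 4. Transcript shifts numbered 634 with at least 50 CPM and 702 where 50% or more of the counts changed models. Protein-coding models held 76.43% of all counts at 10 min, assembled models included, against 86.64% of those in annotated models.

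Of 231 genes of the text and the naming rule that passed the rule, summed annotated transcripts took 20 below it and reversed TRIM56 (log2 ratio 1.001), NALT1 (-2.412), LINC01583 (-0.1079) and CAMSAP1-DT (0.07357). The median baseline took 23 below it and reversed ENSG00000258377 (0.3211), and total counts took 12 below it. The cause was not tested. List medians differed in sign in 6 of 90 lists and families under the median baseline, in 5 relative to GC groups and in 1 under summed transcripts.

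No paired analysis was possible because each group has 1 library, and no library was left out for the same reason. At 5 CPM an interval is wide and covers counting error only. Differences under 2-fold were left uncalled by the size rule, also where the interval excluded 1. An example is CCDC88C, with a ratio of 1.9998 (1.51 to 2.69).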
